A study of Gallus gallus with 5 samples.

Results

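The nuclear genes of the mitochondrial respiratory chain and of the mitochondrial ribosome were examined in liver RNA of 5 hens of a broiler breeder flock, birds kept to lay the eggs from which meat chickens hatch. Members were the entries of the deposited gene table whose symbols mark subunits or assembly factors of complexes I to V (NDUF, SDH, UQCR, COX and ATP5 names) or mitoribosome proteins (MRPL and MRPS names), with at least 10 counts in 2 or more hens. Of the table's 6286 entries 75 carried such a symbol and 73 met the count limit. The remaining entries, ATP5B and MRPL45, were listed at 0 in all 5 hens, which is not read as absence of the transcript. The 73 genes comprised 38 of the respiratory chain and 35 of the mitoribosome. By class there were 16 complex I subunits, 1 complex I assembly factor, 3 genes of complex II, 3 of complex III, 5 of complex IV with 4 of its assembly factors, 6 of complex V, 17 of the large and 18 of the small mitoribosomal subunit.

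From 38 weeks of age, hens were fed either without limit (FF, 2 hens) or a restricted allowance (RF, 3 hens), and total RNA of the frozen liver was sequenced from each hen separately. Both groups were broiler breeder hens, and the labels give no other factor and no age at sampling. The study asked how feeding level relates to the liver transcriptome. RNA of 3 hens was extracted in each feeding group, per the protocol, so 1 FF hen is not part of the values given here.

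Oxidative phosphorylation takes electrons from NADH and succinate through complexes I and II to ubiquinone, then through complex III and cytochrome c to complex IV, which reduces oxygen. The protons pumped on the way drive complex V, the ATP synthase. A few core subunits of complexes I, III, IV and V are encoded in mitochondrial DNA and made on the mitoribosome, whose own proteins, like all members here, come from nuclear genes. In the liver this machinery disposes of electrons from fatty acid oxidation and pays for gluconeogenesis and uric acid synthesis. Genes of the mitochondrial genome itself were not analysed here.

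Library totals ranged from 2666609 estimated counts (FF2) to 4622392 (FF1). The FF2 library, also the shallowest, stood apart from the others: its score on principal component 1 (50.7% of the variance) was 44.5, where the other hens scored -28.0 to -1.75. For a number of genes in which FF2 lay far from FF1, the log2 fold change without FF2 is given as well. Of the liver markers, 10 of 13 were tested and ALB was listed at 0 in all hens, while TTR, APOB, FGB and VTG1 were present in each. The list summed to 201000 to 202000 CPM in FF and 166000 to 242000 CPM in RF (CPM scales counts to library size, here adjusted by TMM). CYP7A1, APOA1 and HNF4A were higher in FF at an unadjusted p under 0.05 (edgeR), at log2 fold changes of 1.59, 1.2 and 0.87. Of the 10 tested, 6 had values above 0 and 4 below, and DESeq2 called 1 at an adjusted p under 0.05. Of the muscle markers, TNNC2, CKM and MYL1 were at 0 in all hens. The muscle list summed to low levels that did not overlap, 4.73 to 9.85 CPM in FF and 2.8 to 4.11 CPM in RF. ACTA1, the 1 muscle marker tested, was higher in both FF hens than in every RF hen. Its log2 fold change was 1.15 (edgeR unadjusted p = 0.053), and 1.54 without FF2. The part of muscle in the values of the mitochondrial genes was not tested.

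As a whole, the 73 genes showed little displacement between feeding levels. Their median log2 fold change, FF over RF, was -0.01, against 0.01 over all 4309 genes tested, and 35 of the 73 lay above 0 (47.9%, against 50.6% of all genes). By edgeR's quasi-likelihood test with Benjamini-Hochberg adjustment over all genes, 0 of the 73 passed an adjusted p under 0.05, where 0.0464% of all genes did. At an unadjusted p under 0.05, 1 was higher in FF, where 4.41% of all genes were, and 1 was lower, where 4.94% were. Both directions together made 2.74% of the members against 9.35% of all genes. DESeq2 called 1 member, MRPL38, as lower, against 1.83% of all genes.

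A missing call does not show equal expression, so the width of the intervals matters. Standard errors of the members' log2 fold changes ran from 0.24 to 0.73 with a median of 0.31. For 39 of the 73 genes (53.4%, against 33.0% of all genes) the 95% interval lay wholly inside a 2-fold change in either direction. That count was 30 without FF2, 16 without FF1, 14 without RF1, 23 without RF2 and 21 without RF3. For the remaining members the interval reached a 2-fold change or more on 1 side or both. The members and all genes were not matched for expression level in these shares. In bulk liver RNA, fewer cells of a type and less RNA per cell cannot be told apart.

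**Figure D1:**
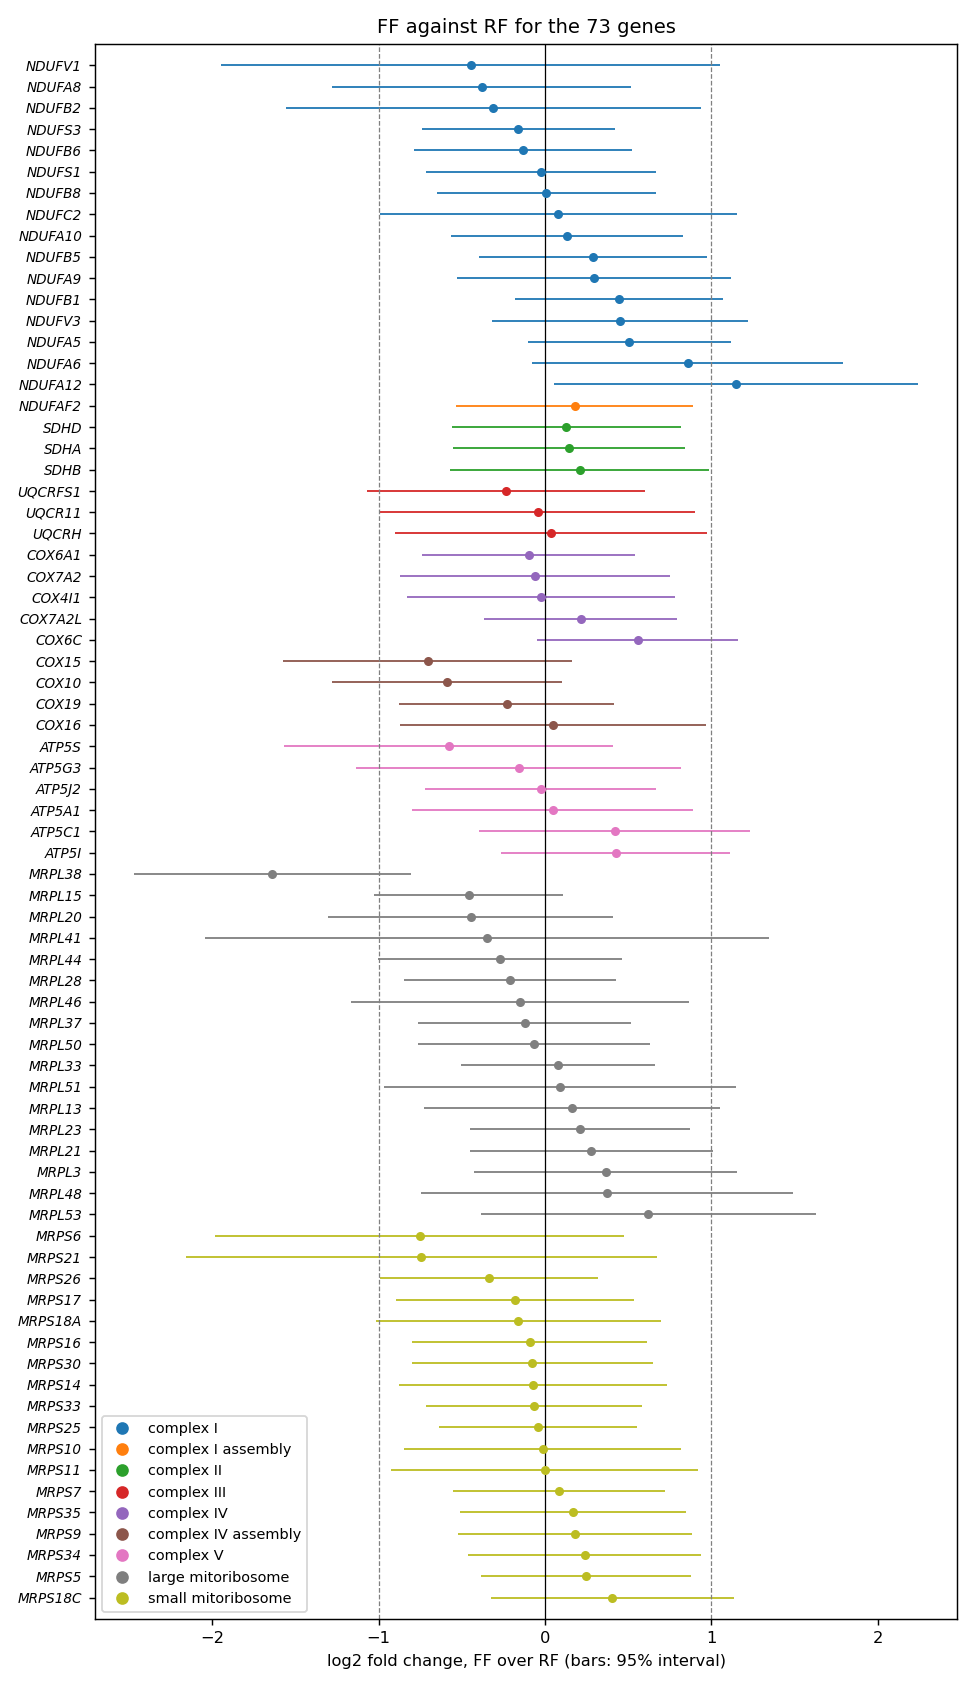
Log2 fold change, FF over RF, of each of the 73 genes (points) with its 95% interval (bars), grouped and coloured by class; dashed lines mark a 2-fold change. MRPL38 at -1.64 and NDUFA12 at 1.15 are the genes whose intervals leave out 0.

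MRPL38 was the member with the strongest contrast. It encodes a protein of the large mitoribosomal subunit. Its level was 119 CPM in FF1 and 74.2 in FF2, against 372 in RF1, 297 in RF2 and 233 in RF3. Both FF hens thus lay well below every RF hen. The FF mean was 96.4 ± 31.4 CPM (SD, n = 2) and that of RF was 301 ± 69.6 CPM (SD, n = 3). The log2 fold change was -1.64 ± 0.36 (SE), with a 95% interval of -2.47 to -0.81. The adjusted p was 0.255 by edgeR and 0.00202 by DESeq2, and over all 12 alternative settings it ranged from 0.00202 to 0.686. The direction held in each of these, with log2 fold changes between -2.02 (without FF1) and -1.33 (without FF2).

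The difference at MRPL38 did not stand alone on its chromosome. In the gene order of the RefSeq annotation of GRCg7b, a newer assembly than the galGal4 build named by the submitters and used here for gene order alone, the next gene on one side is FBF1 (a centriole and cilium protein gene). FBF1 was at 61.5 CPM in FF1 and 64.4 in FF2, against 434, 538 and 209 in RF1, RF2 and RF3. Its log2 fold change was -2.64 ± 0.46 (edgeR adjusted p = 0.136, DESeq2 1.53e-06). The FF hens lay close together and below every RF hen.

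Further along the same side, values in the same direction were found for TEN1, a telomere protein gene listed under an older name (C18H17ORF106), and for CDK3, a cyclin-dependent kinase. TEN1 stood at -2.33 ± 0.48 and CDK3 at -2.86 ± 0.75 on the log2 scale, from low levels of at most 26.1 CPM and 21.7 CPM in any hen. The edgeR adjusted p was 0.232 for TEN1 and 0.329 for CDK3, and DESeq2 gave 0.00190 and 0.0137. CDK3, TEN1, FBF1 and MRPL38 were thus each called by DESeq2 as lower in FF, with both FF hens below every RF hen. The tested gene beyond CDK3, SRP68, stood at -0.04 ± 0.24 with overlapping groups. On the MRPL38 side the next tested gene, WBP2, also had both FF hens below RF, though FF1 at 190.8 CPM barely so against 190.9 CPM in RF3 (-0.49 ± 0.33, DESeq2 adjusted p = 0.751). FBF1 and MRPL38 do not overlap in that annotation, and whether counting used strand is not given in the sources used here. These neighbours were chosen after their values were seen, and what part reads from one gene may have in the counts of another was not tested. In the same annotation 23 of the 73 members overlap another gene. Over all members, 139 nearest or overlapping tested genes that are no members were found, and 12 of these (8.63%, against 9.35% of all genes) had an unadjusted p under 0.05 in edgeR.

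**Figure D2:**
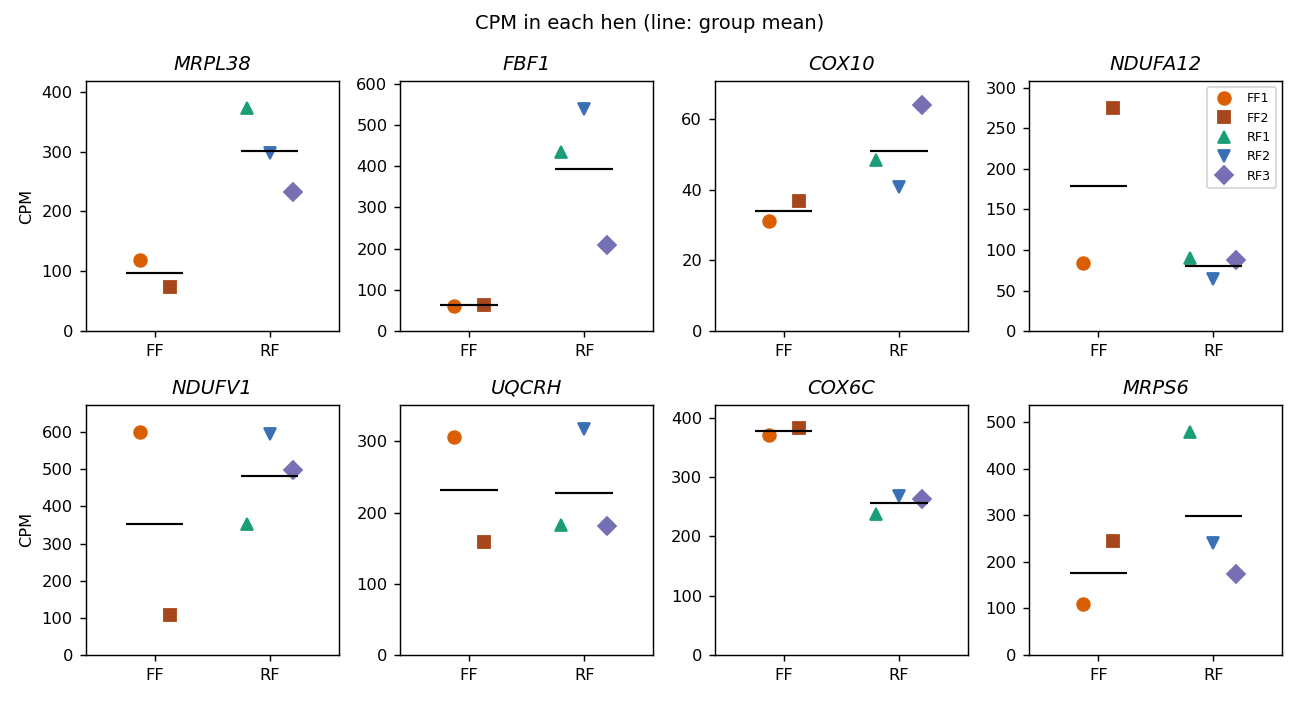
CPM of 8 genes in each hen (symbols) with the group mean (line). MRPL38, its neighbour FBF1 and COX10 lie lower in both FF hens than in every RF hen, COX6C lies higher in both, and in NDUFA12 and NDUFV1 FF2 alone lies far from the other hens.

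Complex I admits electrons from NADH and is the largest of the complexes. Among its 16 subunits the median log2 fold change was 0.11, 10 were above 0 and 0 passed over all genes (edgeR). NDUFA12, an accessory subunit, was the member with an unadjusted p under 0.05 as higher in FF. It stood at 84.1 CPM in FF1 and 275 in FF2, against 90.2, 64.0 and 88.1 in RF1, RF2 and RF3. FF1 lay within the RF range, and the difference came with FF2. The log2 fold change was 1.15 ± 0.47 (edgeR adjusted p = 0.521), and it was 0.07 without FF2 and 1.76 without FF1. NDUFA6, another accessory subunit, was at 102 CPM in FF1 and 153 in FF2, against 51.8, 108 and 50.7 in the RF hens, so that RF2 overlapped FF (0.86 ± 0.40, edgeR adjusted p = 0.561, and 0.56 without FF2). NDUFA5 and NDUFB1, both also accessory, were higher in each FF hen than in any RF hen, at log2 fold changes of 0.51 ± 0.26 (0.26 without FF2) and 0.44 ± 0.27. NDUFAF2, the assembly factor, was at 17.0 and 24.7 CPM in FF and 16.7 to 20.9 CPM in RF.

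Complex I had the widest spread of the classes between FF1 and FF2. NDUFV1, a core subunit that binds NADH, was at 600 CPM in FF1 and 107 in FF2, against 353, 596 and 498 in RF1, RF2 and RF3. FF1 was the highest hen and FF2 the lowest, and the log2 fold change of -0.45 ± 0.64 (edgeR adjusted p = 0.834) became 0.33 without FF2. NDUFB2 went the same way, at 250 CPM in FF1, 64.0 in FF2 and 161 to 247 in RF (-0.31 ± 0.53, and 0.37 without FF2). At the other end stood NDUFA12 and NDUFV3, with NDUFV3 at 51.3 CPM in FF1, 98.5 in FF2 and 50.5 to 61.9 in RF (0.45 ± 0.33, and -0.08 without FF2). The other core subunits measured, NDUFS1 and NDUFS3, stayed closer together, at 365 and 295 CPM and at 94.8 and 115 CPM in FF1 and FF2. The SD over the 16 subunits of the log2 difference between FF2 and FF1 was 1.10, against 0.893 over all genes, and 9 of the 16 were on opposite sides of the RF mean in FF1 and FF2.

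**Figure D3:**
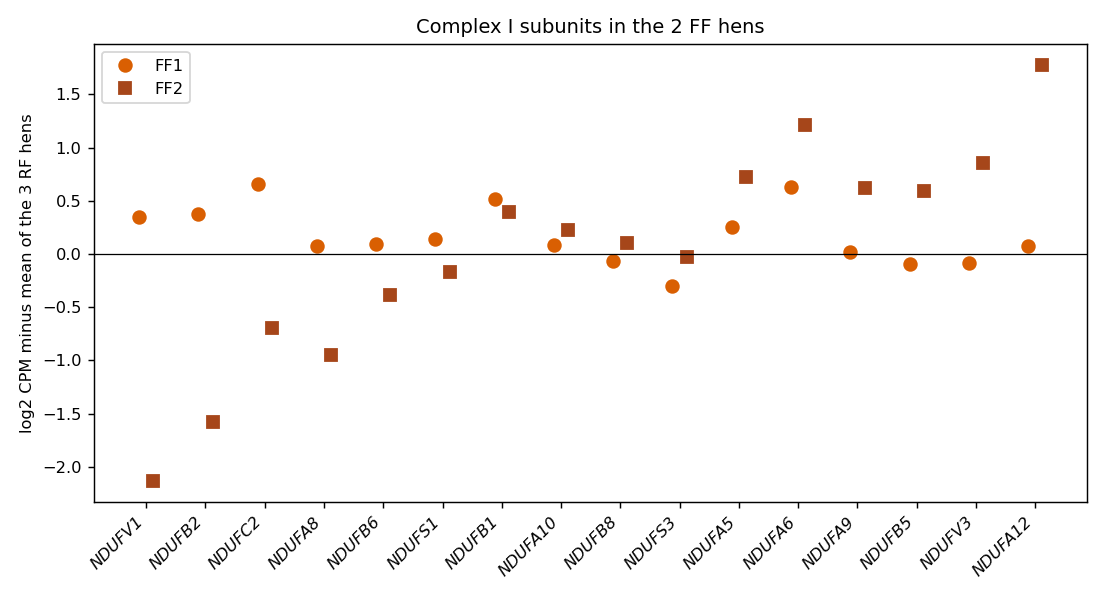
Log2 CPM of the 16 complex I subunits in FF1 and FF2, each relative to the mean of the 3 RF hens and ordered by the difference between the FF hens. FF2 runs from NDUFV1, far below the RF mean, to NDUFA12, far above it, while FF1 stays within a 2-fold change for every subunit.

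Complex II, which passes electrons from succinate to ubiquinone, had all 3 of its genes slightly above 0, with a median of 0.15. SDHA, the flavoprotein that oxidises succinate, was at 262 and 168 CPM in FF and 179, 185 and 220 CPM in RF. SDHB, its iron-sulphur partner, was at 295 and 394 CPM in FF and 262, 236 and 396 CPM in RF, and SDHD, a membrane anchor, at 174 and 161 CPM in FF and 112, 174 and 173 CPM in RF. The groups overlapped in each gene, and the log2 fold changes were 0.15 ± 0.30, 0.21 ± 0.33 and 0.13 ± 0.29, with 95% intervals that all lay within a 2-fold change. The value of SDHA was -0.22 without FF1, and that of SDHB was -0.00299 without FF2.

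Complex III separated the FF hens from each other in all 3 of its genes. UQCRH, the hinge protein at the cytochrome c side, was at 306 CPM in FF1 and 159 in FF2, against 182, 318 and 182 in RF1, RF2 and RF3. UQCRFS1, the Rieske iron-sulphur protein, was at 217 CPM in FF1 and 136 in FF2, against 153, 196 and 275 in RF. UQCR11, a small accessory subunit, was at 175 CPM in FF1 and 73.8 in FF2, against 96.0, 147 and 142 in RF. FF2 was the lowest hen in each gene and RF1 low in each as well. The median log2 fold change was -0.04, and it became 0.45 without FF2 and -0.62 without FF1, and none of the 3 genes passed (edgeR adjusted p of 0.850 to 0.980).

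In complex IV, cytochrome c oxidase, the FF hens agreed closely in COX6C and in COX6A1. COX6C, a small accessory subunit, was at 372 CPM in FF1 and 384 in FF2, against 238, 269 and 263 in RF1, RF2 and RF3. Both FF hens lay above every RF hen with little spread within either group, at a log2 fold change of 0.56 ± 0.26 (95% interval -0.05 to 1.16, edgeR adjusted p = 0.561). COX7A2L, which takes part in joining complexes III and IV, also lay higher in both FF hens, at 51.1 and 58.5 CPM against 42.1 to 49.9 CPM (0.21 ± 0.25). COX6A1 showed overlapping groups, at 482 and 493 CPM in FF and 487 to 581 CPM in RF (-0.10 ± 0.27). COX4I1 and COX7A2 stood at -0.02 ± 0.34 and -0.06 ± 0.35, and the median of the 5 subunits was -0.02.

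The assembly factors of complex IV had the lowest median of the classes, -0.41, with 3 of 4 below 0 and 0 passed (edgeR). The enzymes that make its haem a were the lowest among them. COX10, which adds the farnesyl tail to haem, was at 31.2 CPM in FF1 and 36.7 in FF2, against 48.3, 40.8 and 63.8 in RF1, RF2 and RF3, with both FF hens below every RF hen. COX15, which acts in the next step, was at 27.7 and 19.6 CPM in FF and 27.1, 54.3 and 35.3 CPM in RF, where RF1 overlapped FF. Their log2 fold changes were -0.59 ± 0.30 and -0.71 ± 0.37 (edgeR adjusted p of 0.574 and 0.582). COX19 and COX16 lay at -0.23 ± 0.28 and 0.05 ± 0.39.

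Complex V genes lay on both sides of 0, 3 above and 3 below, with a median of 0.01. ATP5I, the small e subunit of the membrane part, was at 242 CPM in FF1 and 210 in FF2, against 172, 204 and 129 in RF, so that the groups did not overlap (0.43 ± 0.30, edgeR adjusted p = 0.664). ATP5S, a coupling factor with only 13 to 35 counts a hen, was at 5.74 and 4.73 CPM in FF and 5.88 to 9.69 CPM in RF (-0.58 ± 0.42). ATP5A1, the alpha subunit of the head that makes ATP, was at 619 and 377 CPM in FF and 430, 386 and 633 CPM in RF (0.05 ± 0.36). The gamma subunit ATP5C1 and the c subunit ATP5G3 stood at 0.42 ± 0.35 and -0.16 ± 0.42, and ATP5J2 at -0.03 ± 0.30. ATP5G3 was at 243 CPM in FF1 and 111 in FF2, against 157, 165 and 270 in RF1, RF2 and RF3. The even split of the class depended on FF2. Without it the log2 fold changes were 0.37 for ATP5A1, 0.09 for ATP5C1, 0.31 for ATP5G3, 0.54 for ATP5I, 0.06 for ATP5J2 and -0.44 for ATP5S. ATP5A1 has a copy on the W chromosome in the same annotation, so how reads were divided between the copies in these ZW birds is uncertain.

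The large mitoribosomal subunit, MRPL38 included, had 8 of 17 genes above 0 and a median of -0.06. After MRPL38 the smallest p belonged to MRPL15, at 40.2 and 38.2 CPM in FF and 52.5, 54.6 and 54.7 CPM in RF. Its groups did not overlap and each was tight, at a log2 fold change of -0.46 ± 0.24 (95% interval -1.03 to 0.11, edgeR adjusted p = 0.582). MRPL41 varied most, at 48.8 CPM in FF1 and 6.18 in FF2, against 31.3, 53.2 and 23.1 in RF, from 17 counts in FF2 and 99 or more elsewhere. Its log2 fold change was -0.35 ± 0.73, and 0.46 without FF2. MRPL37 was nearly constant over the RF hens, at 48.5 to 49.1 CPM, with FF1 at 36.3 and FF2 at 53.8 on either side.

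In the small mitoribosomal subunit 6 of 18 genes lay above 0, with a median of -0.05, and 14 of the 18 had intervals inside a 2-fold change. MRPS6 was at 109 CPM in FF1 and 245 in FF2, against 480, 240 and 174 in RF1, RF2 and RF3. RF1 was far above the other hens and the groups overlapped (-0.75 ± 0.53, edgeR adjusted p = 0.667, and -1.43 without FF2). In the GRCg7b annotation MRPS6 overlaps the myo-inositol transporter gene SLC5A3, so its counts may hold reads of that gene, which was not tested. MRPS18C, next in order of p, lay at 18.3 and 25.5 CPM in FF and 13.7 to 19.2 CPM in RF (0.40 ± 0.31), and MRPS21 at 118 CPM in FF1 and 22.9 in FF2, against 91.1 to 150 CPM in RF (-0.74 ± 0.61, and 0.00 without FF2). PRPF3, which overlaps MRPS21 in that annotation, was at 60.5 CPM in FF1 and 167 in FF2, against 65.2 to 89.0 CPM in RF (0.61 ± 0.42). There, 5 members overlap a tested gene. The others were FAM175A at MRPS18C (0.47 ± 0.42), CPSF2 at NDUFB1 (0.43 ± 0.28), BRAF at NDUFB2 (-0.21 ± 0.33) and SMIM15, listed as CZH5ORF43, at NDUFAF2 (-0.19 ± 0.25). CPSF2, like NDUFB1, was higher in both FF hens than in every RF hen. What part shared reads had in these values was not tested.

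Across all classes, FF and RF hens did not overlap in 11 of the 73 genes (15.1%, against 27.0% of all genes tested). FF lay above in 6, namely NDUFA5, NDUFB1, COX6C, COX7A2L, ATP5I and MRPL53 (8.22%, against 13.1% of all genes). FF lay below in 5, namely COX10, ATP5S, MRPL15, MRPL38 and MRPS26 (6.85%, against 13.9%). Some of these gaps were narrow. MRPS26 was at 153.4 CPM in FF1 and 103.3 in FF2, against 155.6 in RF3, the lowest RF hen (-0.34 ± 0.28). MRPL53 was at 6.15 and 9.09 CPM in FF and 3.77 to 5.58 CPM in RF, from 16 to 30 counts a hen. Of the 6 that lay above, 5 were respiratory chain genes, and of the 5 that lay below, 3 were mitoribosome genes, a split that was not tested.

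The class levels of FF and RF hens overlapped in every class but the complex IV assembly factors, where both FF hens lay below every RF hen. As the mean over genes of log2 CPM relative to the mean of the 5 hens, the respiratory chain stood at 0.11 in FF1, -0.07 in FF2, -0.19 in RF1, 0.06 in RF2 and 0.08 in RF3. RF1 was the lowest hen for complexes I, II, IV and V, and FF2 for complex III. The mitoribosome stood at 0.07 in FF1, -0.21 in FF2, 0.00 in RF1, 0.13 in RF2 and 0.01 in RF3. By this mean FF2 was lowest there and RF1 lay mid-range. In the respiratory chain and the mitoribosome alike, the FF hens lay on either side of RF3. Respiratory chain genes took 0.762% in FF1, 0.645% in FF2, 0.526% in RF1, 0.657% in RF2 and 0.688% in RF3, as shares of all counts of the hen. The 95% Wilson intervals, which cover counting error only, were 0.754% to 0.770% in FF1 and 0.519% to 0.533% in RF1. Mitoribosome genes took 0.241% in FF1, 0.209% in FF2, 0.258% in RF1, 0.274% in RF2 and 0.217% in RF3. By share, RF1 thus lay above FF1, FF2 and RF3.

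**Figure D4:**
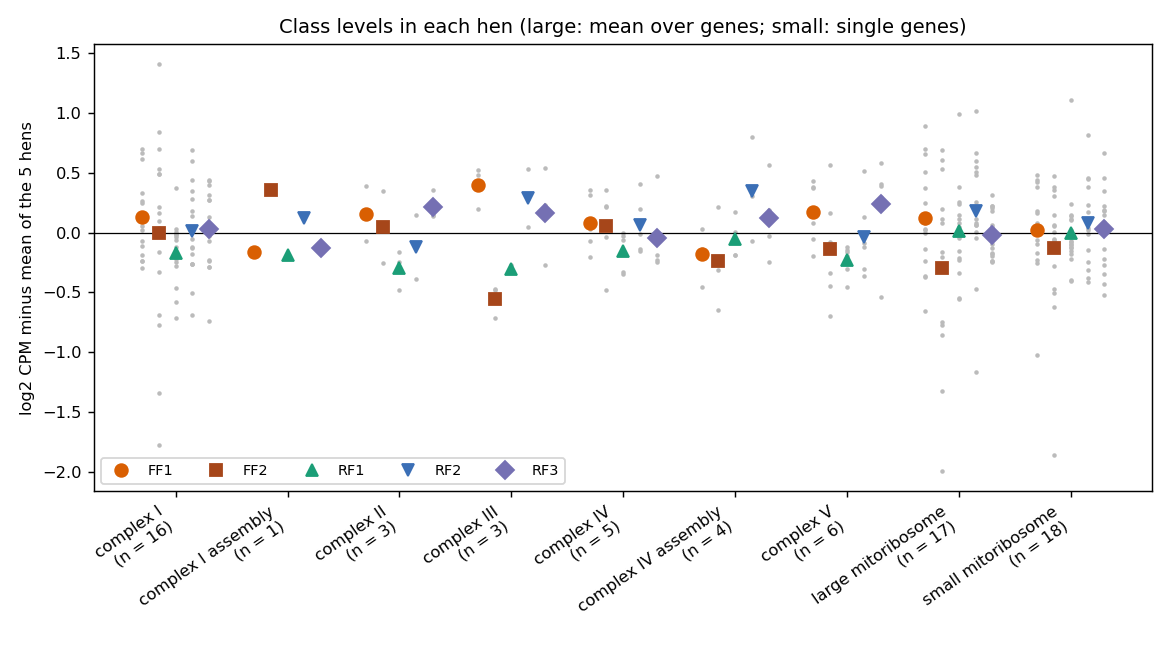
Log2 CPM relative to the mean of the 5 hens, for each class and hen; coloured symbols are means over the genes of a class and grey points single genes. Complex III shows FF1 at 0.40 and FF2 at -0.55, with the RF hens between, and FF2 has the widest scatter of single genes in complex I and the mitoribosome.

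The spread of single genes set FF2 apart more than its mean did. Over the 73 genes the SD of the log2 difference was 0.410 to 0.535 for the pairs of hens without FF2 and 0.732 to 0.917 for those with it. Over all genes tested the same pairs gave 0.622 to 0.732 and 0.893 to 1.12, so the mitochondrial genes spread less than the table as a whole in every pair. The sets were not matched for expression. Gene means ran from 5.99 to 508 CPM in the members and from 1.43 to 75800 CPM in all genes. The lowest count in any hen was 13 in the members and 0 in all genes. FF2 was the highest or lowest hen in 45 of the 73 genes (61.6%), close to its 61.8% of all genes. It was lowest in 37.0% and highest in 24.7% of the members, against 30.8% and 31.0% of all genes. FF1 and FF2 lay on opposite sides of the RF mean in 37 of the 73 (50.7%, against 41.3%). Without FF1, leaving FF2 alone against RF, 12 members had an unadjusted p under 0.05 in edgeR, where 22.8% of all genes did, and without FF2, 2 members did, MRPL3 and MRPL38, where 7.09% of all genes did.

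**Figure D5:**
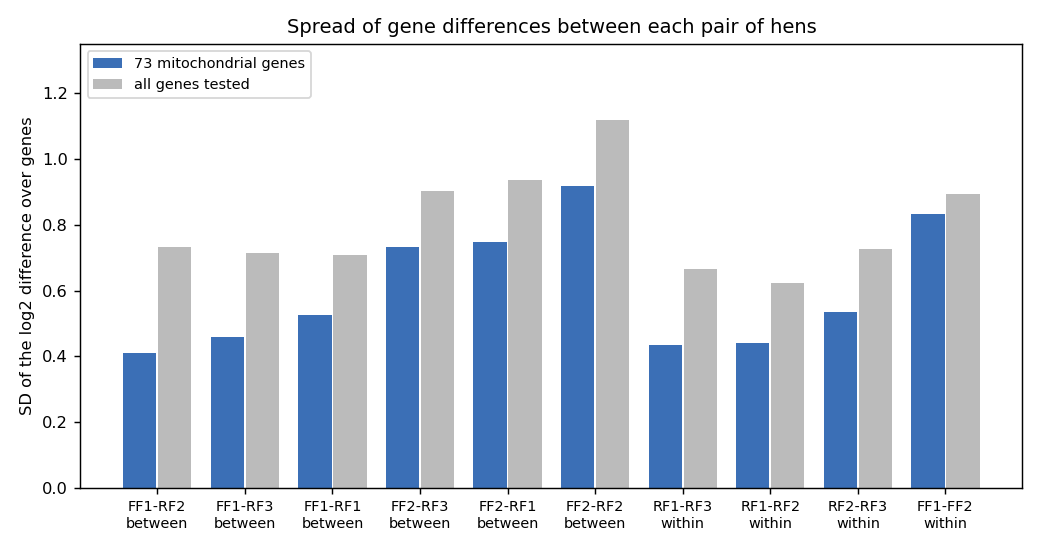
SD over genes of the log2 CPM difference between each pair of hens, for the 73 mitochondrial genes (blue) and all genes tested (grey), within and between feeding groups. The pairs that include FF2 are the widest for both sets, and the blue bar is the lower one in each pair.

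Genes that control or accompany this machinery were given from lists that cover regulators, the citric acid cycle, carriers, import and fission. Of 12 tested biogenesis regulators 4 lay above 0 (median -0.05), and 0 passed in edgeR or DESeq2, with 1 higher and 1 lower at an unadjusted p under 0.05 (edgeR). PPARGC1A, the coactivator known to induce respiratory chain genes, was at 3.08 and 4.73 CPM in FF and 30.8, 17.9 and 6.31 CPM in RF, with both FF hens below every RF hen (-2.26 ± 0.70, edgeR adjusted p = 0.436). GABPB1, a subunit of the GABP factor that binds their promoters, was at 26.7 CPM in FF1 and 78.9 in FF2, against 15.9 to 24.5 CPM in RF (1.29 ± 0.46, and 0.33 without FF2). Its partner GABPA stood at 0.42 ± 0.31, the factor NRF1 at -0.06 ± 0.34 and TFAM, which packages and transcribes mitochondrial DNA, at -0.04 ± 0.28.

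In the citric acid cycle 9 of 12 tested genes lay above 0 (median 0.08). IDH3A, of the NAD-linked isocitrate dehydrogenase, was at 29.1 CPM in FF1 and 69.8 in FF2 against 20.0 to 28.5 CPM in RF (0.99 ± 0.40, and 0.25 without FF2), and DLST, of the 2-oxoglutarate dehydrogenase complex, lay at -0.45 ± 0.29. Among 12 carriers and shuttles 5 lay above 0 (median -0.15). The outer membrane channel VDAC1 was at 89.2 and 81.4 CPM in FF and 34.4 to 68.5 CPM in RF (0.80 ± 0.33), COQ9 of ubiquinone synthesis at -0.61 ± 0.26 and cytochrome c (CYCS) at -0.31 ± 0.52, or 0.32 without FF2. The matrix superoxide dismutase SOD2 stood at -0.12 ± 0.35. Of 7 respiratory chain assembly and accessory genes outside the symbol patterns 3 lay above 0 (median -0.04). USMG5, a small ATP synthase subunit, was at 112 and 117 CPM in FF against 69.7 to 81.1 CPM in RF (0.57 ± 0.24), and TIMMDC1 lay at -0.48 ± 0.35. AURKAIP1, a mitoribosome protein under another name, stood at 0.32 ± 0.25.

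Import and folding genes had 7 of 13 above 0 (median 0.03), with the protease subunit CLPX at -0.47 ± 0.31 and PAM16 of the import motor at -0.42 ± 0.30. Fission, fusion and cristae genes had 3 of 5 above 0 (median 0.09), with MFN1, a fusion protein, at 0.79 ± 0.36 and IMMT, of the cristae junction, at 0.52 ± 0.27. In none of these lists did a gene pass an adjusted p under 0.05 in edgeR or DESeq2. An unadjusted p under 0.05 (edgeR) was found for IDH3A, VDAC1 and USMG5 besides the regulators PPARGC1A and GABPB1. That was 1 of 12 citric acid cycle genes, 1 of 12 carriers and 1 of 7 assembly genes, with 0 of 13 import and 0 of 5 fission genes. Among all genes tested the share was 9.35%, so these genes are given as values and not as a result about the lists. Without FF2 the log2 fold changes were -2.55 for PPARGC1A, 0.33 for GABPB1, 0.25 for IDH3A, 0.87 for VDAC1 and 0.56 for USMG5. The carrier SLC25A4, higher in both FF hens than in every RF hen, stood at 0.68 ± 0.30, and at 0.96 without FF2. Cytosolic ribosomal proteins, the most similar gene group, had 14 of 52 above 0 and a median of -0.15, against 14 of 35 and -0.06 for the mitoribosome; RPS29 and RPSA had their smallest p values, and the difference between the groups was not tested.

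Markers of other cells were read beside these values. Summed over each list, endothelial markers (3 of 7 in the table) stood at 161 to 202 CPM in FF and 271 to 318 CPM in RF without overlap. Of the 3, KDR and LYVE1 were lower in FF at an unadjusted p under 0.05 (edgeR). With all hens the log2 fold changes were -1.03 for KDR, -0.93 for LYVE1 and -0.4 for CDH5. Without FF2 they were -0.86, -0.81 and -0.8. Red blood cell markers (7 of 12) stood at 3600 CPM in both FF hens and 1080 to 4150 CPM in RF, with SLC4A1 at 0. Leukocyte markers (10 of 11) ranged from 2260 to 3990 CPM in FF and 3370 to 5790 CPM in RF, and bile duct markers (5 of 5, KRT7 at 0) from 106 to 199 CPM and 198 to 249 CPM. Stellate cell and fibroblast markers (5 of 9) summed to 537 to 1260 CPM in FF and 505 to 751 CPM in RF. All 5 had positive log2 fold changes (median 0.72), and LUM and ACTA2 were higher in both FF hens than in every RF hen, though none of the 5 reached an unadjusted p under 0.05 (edgeR). Log2 fold changes above 0 were found for 3 of 3 tested red blood cell markers, 4 of 10 leukocyte markers and 2 of 3 bile duct markers. The part of these cells in the values of the mitochondrial genes was not tested.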

How the data were processed

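RNA of 5 hen livers was sequenced from strand-specific libraries, with RNA integrity numbers above 8, per the labels' protocols. The authors deposited estimated counts per gene symbol, 1 column per hen. FastQC, TopHat2 2.0.13, Cuffdiff 2.2.1, edgeR and the galGal4 build are named without role or order, per the submitters' processing notes. For the annotation, for reads with several matches and for strand in counting, the method is not given in the sources used here. In 51 entries some values were not whole, and all estimated counts were rounded. Columns were matched to samples by hen number. Library totals were 4622392 (FF1), 2666609 (FF2), 4493687 (RF1), 3357844 (RF2) and 4471414 (RF3).

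Genes were kept by filterByExpr (minimum count 10), leaving 4309 and dropping 1977. All 73 members were kept. Counts were TMM-scaled and tested with edgeR 4.0.16 in R 4.3.3 (glmQLFit and glmQLFTest, two-sided, feeding group the single term), with Benjamini-Hochberg adjustment over all genes and a threshold of 0.05. The standard error is the log2 fold change divided by the root of F. Log2 CPM used a prior count of 2. Alternatives were DESeq2 1.42.0, limma-voom (limma 3.58.1), other scalings and filters, the replicate number as a block, and leaving out each hen. The calculation was tested on simulated counts in which all hens varied alike. Because FF2 stood apart in these data, that test cannot show how well the intervals or calls hold here. No set test was run.

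The text names members with an unadjusted p under 0.05, the member of highest CPM and the 2 of smallest p in each class, and the 2 of smallest p in each related list. PPARGC1A, NRF1, GABPA, TFAM, CYCS and SOD2 were always given. All others, neighbours included, were named after their values were seen. Promoter motifs were not analysed here. Members and lists were chosen with earlier results of these data known. All 73 members matched 1 gene each of the RefSeq GRCg7b table, 2 by an older symbol.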

Additional observations from a re-analysis of the deposited data

How the results depend on the processing

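The number of members called, 0 by edgeR, was 1 with DESeq2 (MRPL38) and 0 under the other 11 alternatives. Members with an unadjusted p under 0.05, 2 in all, numbered 3 with library totals alone and 3 with DESeq2 (COX6C added in each), 1 with limma-voom, 1 with the replicate block, 2 with the other scaling and filters, and 1 to 12 when single hens were left out. Among all genes, 2 were called, against 6 without a filter on low counts, 1 with the filter of 5 CPM, 79 with DESeq2, 6 with the replicate block, and 0 to 8 when single hens were left out. The median log2 fold change of the members lay between -0.12 and 0.09 under all 12 alternatives. With library totals alone it was 0.09 while that of all genes rose to 0.11, and 48 members then lay above 0.

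The count of members with intervals inside a 2-fold change, added after seeing the data, was 0 with the replicate block, 14 to 30 when single hens were left out and 35 to 40 under the rest. Where single hens were left out of FF, the lone FF hen was assumed to vary like the other hens. The hens differ between groups, so equal replicate numbers pair nothing. Deviations from the group means correlated over genes at -0.143 for FF1 with RF1 and -0.355 for FF2 with RF2. In a group of 2 hens the deviations are equal and opposite. FF2 with RF1 (0.143) and FF1 with RF2 (0.355) therefore had to mirror these values, and no conclusion on pairing is drawn from their signs.

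Of 21 named members, 8 changed sign under some alternative, and the cause was not tested. UQCR11 was at 0.0578 with library totals alone, and UQCRH at -0.00825 with limma-voom and -0.123 with the replicate block. When single hens were left out, the log2 fold change ranged from -0.81 to 0.46 for UQCR11, -0.52 to 0.45 for UQCRH, -0.22 to 0.44 for SDHA and -0.36 to 0.37 for ATP5A1. It ranged from -2.17 to 0.33 for NDUFV1, -0.0938 to 0.425 for NDUFAF2, -0.00299 to 0.47 for SDHB and -0.619 to 0.0738 for UQCRFS1.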
